A study of Homo sapiens with 4 samples.

Results

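The 9 genes described here encode enzymes that make active oestrogen or take it out of action. They were chosen by symbol, as STS, SULT1E1, CYP19A1, HSD17B1, HSD17B2, HSD17B4, HSD17B8, HSD17B11 and HSD17B14, and each symbol matched 1 of the 58336 genes in the deposited table. Expression was measured by RNA-seq in AGS and HGC-27, both human gastric cancer cell lines with the genotype given as WT. AGS was derived from a gastric adenocarcinoma, and HGC-27 from a lymph node metastasis of an undifferentiated gastric cancer. Each line gave 1 control library, labelled nc, and 1 library from cells kept for 1 day in 10 nM estradiol (E2), the main active oestrogen. The vehicle of the controls is not stated in the labels, and no label names separate cultures. Estradiol effects over both lines therefore rest on 1 control and 1 treated library per line, and the line difference rests on 2 libraries per line that differ in treatment. The p-values measure only the spread between these libraries, which the fit pooled mostly across genes.

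Active oestrogen in a tissue depends on local enzymes as well as on supply from the blood. Aromatase turns androgens into oestrone and estradiol, steroid sulfatase frees oestrone and androgen precursors from their circulating sulfates, and sulfotransferase SULT1E1 adds the sulfate back, which blocks receptor binding. The 17β-hydroxysteroid dehydrogenases (17β-HSDs) move steroids between the keto form, such as weakly active oestrone, and the hydroxyl form, such as estradiol. HSD17B1 mainly reduces oestrone to estradiol, whereas HSD17B2 runs the opposite way, and several other family members that oxidise estradiol in vitro have a main role in fatty acid metabolism. In the stomach, aromatase is known from parietal cells of the acid-secreting mucosa.

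Sequences upstream of an annotated start are shown for 2 members with few counts, SULT1E1 and CYP19A1. They are also shown for 3 with a single start and more counts, HSD17B4, HSD17B8 and HSD17B11. RefSeq promoter windows on GRCh38.p14 were matched by symbol for 6 of the 9 genes (STS, SULT1E1, CYP19A1, HSD17B4, HSD17B8 and HSD17B11), with 16 windows in all because STS has 5 starts and CYP19A1 has 7. The stretches below are for SULT1E1 (chr4:69860153-69860272, minus strand), the most downstream CYP19A1 start (chr15:51243065-51243184, minus strand), HSD17B4 (chr5:119452323-119452442, plus strand), HSD17B8 (chr6:33204522-33204641, plus strand) and HSD17B11 (chr4:87391387-87391438, minus strand). Each is read 5′ to 3′ on the gene's strand, excludes annotated exons of the gene, and has CpG dinucleotides in capitals. Exons were those of GENCODE, so a stretch can end well before the RefSeq start. The last printed base lies 8 bases before that start for SULT1E1, 36 for CYP19A1 and 55 for HSD17B4. It lies 14 bases before it for HSD17B8 and 199 for HSD17B11.
SULT1E1: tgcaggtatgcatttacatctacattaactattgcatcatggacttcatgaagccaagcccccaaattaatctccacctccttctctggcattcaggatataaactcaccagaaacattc
CYP19A1: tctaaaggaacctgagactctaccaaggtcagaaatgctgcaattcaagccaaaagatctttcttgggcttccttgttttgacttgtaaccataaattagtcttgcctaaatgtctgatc
HSD17B4: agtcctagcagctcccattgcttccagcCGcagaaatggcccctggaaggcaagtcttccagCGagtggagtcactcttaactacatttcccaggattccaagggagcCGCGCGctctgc
HSD17B8: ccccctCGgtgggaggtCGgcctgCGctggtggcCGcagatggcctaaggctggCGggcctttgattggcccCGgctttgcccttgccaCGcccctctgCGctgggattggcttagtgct
HSD17B11: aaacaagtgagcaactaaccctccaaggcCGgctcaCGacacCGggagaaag
The SULT1E1 and CYP19A1 stretches held 0 CpG, against 5 in HSD17B4, 8 in HSD17B8 and 3 in the shorter HSD17B11 stretch. These stretches lie at unlike distances from the start. The 250 bases counted next run up to the RefSeq start and include the exon bases left out of the print. Over the 250 bases before the start, CpG numbered 1 for SULT1E1, 0 to 5 for the CYP19A1 starts, 1 to 15 for the STS starts, 14 for HSD17B4, 14 for HSD17B8 and 16 for HSD17B11, against a median of 11 over 35116 windows. HSD17B4, HSD17B8 and HSD17B11 had more than the median. STS, which was well expressed, had 5, 15, 4, 1 and 3 at its starts, so few CpG were not particular to the genes with few counts. This is a description of 6 genes, with no test.

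Letters of known motifs were searched on both strands of the same 250 bases. The complete oestrogen response element (AGGTCA, 3 bases of any kind, then TGACC), the palindrome bound by oestrogen receptor dimers, was in 0.0256% of all windows and in none of the 16. Its 6-base arm AGGTCA was in 12.1% of all windows, and among these genes in 1 STS window (144 bases before the start) and 2 CYP19A1 windows (105 and 130 bases before). In the printed CYP19A1 stretch the arm overlaps CAAGGTCA, a motif of the NR5A receptors that drive aromatase in the gonads, which was in 1.15% of all windows. TATAAA, the TATA box, was in 10.7% of windows and lay 29 bases before the SULT1E1 start, 31 bases before that CYP19A1 start and 103 bases before 1 STS start. CCAAT, in 32.0% of windows, lay 69 and 27 bases before the HSD17B8 start, 73 before the HSD17B11 start, 67 before 1 STS start, and 168, 206, 215 and 219 before 4 of the CYP19A1 starts. GGGCGG, the GC box, in 42.6% of windows, was found for 2 CYP19A1 starts, HSD17B4 and HSD17B8, GCGTG, the core of the xenobiotic element, in 32.2%, for 2 STS starts, HSD17B8 and HSD17B11, and TGACGTCA, the cyclic AMP element, in 1.65%, for none. The TATA and CCAAT letters did not divide the genes with few counts from the others. A match describes the letters only. All distances are from the RefSeq start. The CYP19A1 TATAAA lies between its printed stretch and the start, and the HSD17B11 CCAAT lies in an annotated exon of that gene.

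The 4 libraries held 24597379 to 28734374 counts, and 3 counts corresponded to 0.104 to 0.12 CPM (the count scaled to library size, here with TMM). Mitochondrial genes took 7.82% to 7.94% of counts. Epithelial markers were higher in AGS for 8 of 8 genes, with a summed level of 6122 and 6449 CPM in AGS against 72.2 and 76.6 CPM in HGC-27. Of 8 gastric epithelial markers 6 were tested, 5 higher in AGS and 1 in HGC-27. GKN1 was at 0 in every library, and 5 of the 8 were at 0 in both HGC-27 libraries, so most gastric markers were not detected in the line labelled HGC-27. Fibroblast markers were higher in HGC-27 for 6 of 6 genes (10.6 to 12.5 CPM in AGS, 1748 to 1817 CPM in HGC-27), with COL1A2, DCN, LUM and THY1 at 0 in AGS, and mesenchymal markers for the 5 of 6 that could be tested (4.997 to 5.566 CPM against 1955 to 1980 CPM). The part of these states in the line differences below was not tested. In bulk RNA, fewer cells with a transcript and less transcript per cell cannot be told apart.

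STS was the enzyme with the clearest lead in AGS, and HSD17B1, HSD17B2, HSD17B11 and HSD17B14 were higher in HGC-27 by 4.17-fold to 14.8-fold. Of the 9 genes, 8 passed the filter on low counts, and 7 of these 8 differed between AGS and HGC-27 at an adjusted p under 0.05 (edgeR quasi-likelihood test, Benjamini-Hochberg over 18278 genes). The background was high, with 77.2% of all tested genes called, 35.7% higher in AGS and 41.5% higher in HGC-27, and a count of 7 of 8 is near that background. The calls of CYP19A1 and HSD17B4 were lost when certain single libraries were left out. STS and HSD17B4 were higher in AGS, while CYP19A1, HSD17B1, HSD17B2, HSD17B11 and HSD17B14 were higher in HGC-27. The median log2 difference, AGS minus HGC-27, was -2.12 for the 8 genes and -0.10 for all tested genes, and the median absolute difference was 2.12 against 0.89. CYP19A1 passed the filter through HGC-27 alone, so its difference was partly set by that filter. Limma-voom and DESeq2 also called 7 of the 8.

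**Figure D1:**
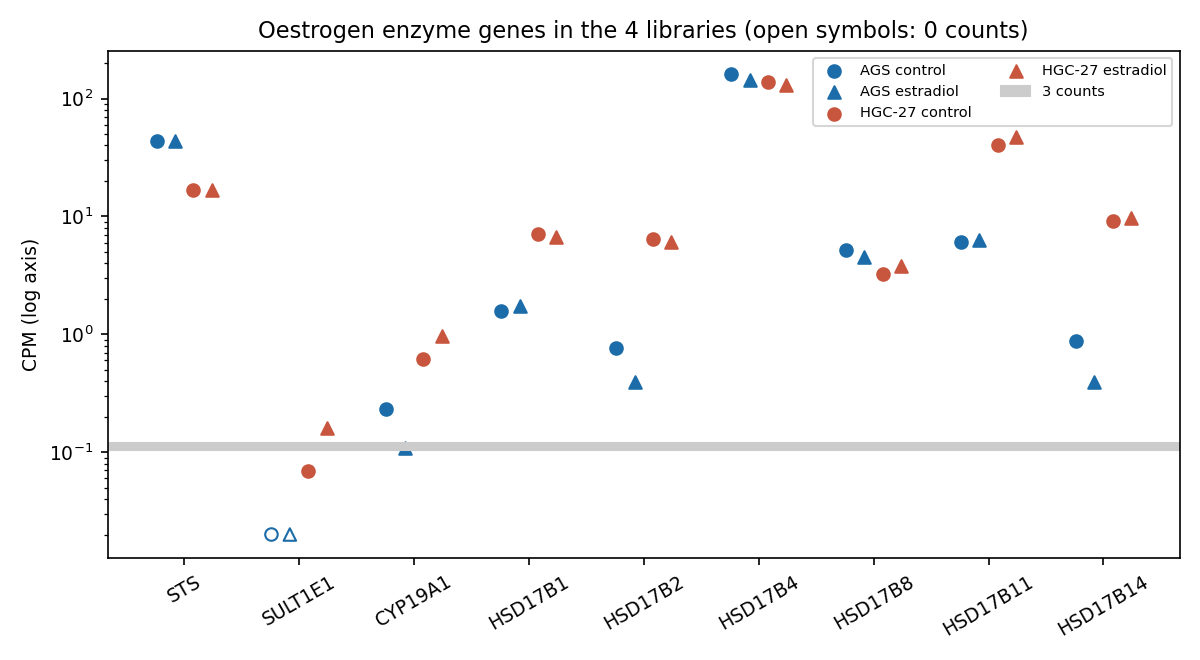
CPM (log axis) of the 9 oestrogen enzyme genes in each of the 4 libraries, with AGS in blue, HGC-27 in red, control as circles and estradiol as triangles; the grey band is the level of 3 counts and open symbols mark 0 counts. STS stands higher in AGS, HSD17B1, HSD17B2, HSD17B11 and HSD17B14 stand higher in HGC-27, and SULT1E1 (at most 0.16 CPM) and CYP19A1 (at most 0.959 CPM) are the lowest.

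STS (ENSG00000101846, chrX:7219456-7354810, plus strand), the sulfatase of the endoplasmic reticulum that releases oestrone and dehydroepiandrosterone from their sulfates, was the member with the most even readings within a line. It measured 44.1 CPM without and 43.6 CPM with estradiol in AGS, and 16.7 CPM without and 16.7 CPM with it in HGC-27. Both AGS libraries stood above both HGC-27 libraries, and the treatments within a line were nearly equal. The level in AGS was 2.62-fold that in HGC-27 (log2 difference 1.39 ± 0.09 SE, edgeR adjusted p = 1.02e-39). Taken within treatments, the log2 ratio of AGS over HGC-27 was 1.39 between the controls (95% counting interval 1.24 to 1.55) and 1.38 between the estradiol libraries (1.22 to 1.54).

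SULT1E1 (ENSG00000109193, chr4:69841212-69860152, minus strand), the sulfotransferase with high affinity for oestrogens, was hardly detected. It had 0 counts without and 0 with estradiol in AGS, and 2 without and 4 with it in HGC-27. A count of 0 allows up to 0.115 CPM in AGS control and 0.108 CPM in AGS estradiol, and the HGC-27 libraries, at 0.0691 and 0.16 CPM, lay around that limit. No difference was detectable at this depth, the gene failed the filter, and no fold is given. Of its longest transcript, 25.5% of the 31-base stretches also occur in the overlapping gene AC108941.2, which had 0 counts in each library. How reads that fit both genes were counted is not known, so the low SULT1E1 counts are uncertain.

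CYP19A1 (ENSG00000137869, chr15:51208057-51338610, minus strand) encodes aromatase, the only enzyme of the set that forms the aromatic ring of oestrogens. Its counts were 6 without and 3 with estradiol in AGS, and 18 without and 24 with it in HGC-27, or 0.231, 0.108, 0.621 and 0.959 CPM. All 4 values were low, and both HGC-27 libraries exceeded both AGS libraries. The fitted log2 difference was -2.18 ± 0.73 SE, a 4.54-fold higher level in HGC-27 (edgeR adjusted p = 0.00406). By counting error alone, the AGS over HGC-27 log2 ratio was -1.35 between the controls (-3.05 to -0.04) and -2.95 between the estradiol libraries (-5.52 to -1.43). Without the HGC-27 estradiol library the log2 difference was -1.86 and the adjusted p was 0.111, so the call rested on that library. MIR4713HG, on the opposite strand of the locus, had 4 and 2 counts in the AGS libraries and 16 and 13 in those of HGC-27, and AC020891.2, also opposite, had 0 and 0 against 5 and 9. Since it is not known whether strand was kept, reads of CYP19A1 and of these genes cannot be told apart where they overlap.

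HSD17B1 (ENSG00000108786, chr17:42549214-42555213, plus strand) is a reductive enzyme that makes estradiol from oestrone. It measured 1.58 CPM without and 1.73 CPM with estradiol in AGS, and 7.08 CPM without and 6.75 CPM with it in HGC-27. The groups did not overlap between lines, and the level was 4.17-fold higher in HGC-27 (log2 difference -2.06 ± 0.25 SE, edgeR adjusted p = 1.50e-14). Of its longest transcript, 22.7% of the 31-base stretches lie in the antisense gene AC067852.2. That gene had 4 and 2 counts in the AGS libraries and 0 in both HGC-27 libraries, against 41, 48, 205 and 169 counts for HSD17B1, in the order AGS control, AGS estradiol, HGC-27 control and HGC-27 estradiol.

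HSD17B2 (ENSG00000086696, chr16:82035004-82098534, plus strand) oxidises estradiol to oestrone and testosterone to androstenedione. Counts were 20 without and 11 with estradiol in AGS, and 188 without and 153 with it in HGC-27, which is 0.769, 0.398, 6.49 and 6.11 CPM. The HGC-27 libraries were again the high pair, by 10.9-fold (log2 difference -3.44 ± 0.32 SE, edgeR adjusted p = 2.33e-23). The making and the oxidising enzyme were therefore both higher in HGC-27.

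Set against each other, HSD17B1 took 67.2% of the summed HSD17B1 and HSD17B2 counts in AGS control (95% Clopper-Pearson interval 54.0% to 78.7%) and 81.4% in AGS estradiol (69.1% to 90.3%). In HGC-27 it took 52.2% in control (47.1% to 57.2%) and 52.5% in estradiol (46.9% to 58.0%). The interval of the AGS control library overlapped both HGC-27 intervals, and that of the AGS estradiol library overlapped neither. Overlap of intervals is not a test, and the difference in share between the lines was not tested. Which gene stood higher per kilobase depended on the length used. With the deposited gene lengths of 5658 and 9550 bases, HSD17B1 was 3.46, 7.37, 1.84 and 1.86 times HSD17B2 in AGS control, AGS estradiol, HGC-27 control and HGC-27 estradiol. With the principal transcripts of 4982 and 1455 bases, the ratios were 0.599, 1.27, 0.318 and 0.323, so HSD17B2 was the higher gene in 3 of the 4 libraries.

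HSD17B14 (ENSG00000087076, chr19:48813017-48836678, minus strand), a cytosolic NAD-dependent enzyme that oxidises estradiol in vitro, had the largest line difference of the 8 tested members. Counts were 23 without and 11 with estradiol in AGS, and 264 without and 245 with it in HGC-27, or 0.884, 0.398, 9.11 and 9.79 CPM. Levels in HGC-27 were 14.8-fold higher (log2 difference -3.89 ± 0.28 SE, edgeR adjusted p = 4.50e-36). The AGS over HGC-27 log2 ratio was -3.34 between the controls (-4.05 to -2.75) and -4.56 between the estradiol libraries (-5.64 to -3.76), and these counting intervals overlap.

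HSD17B11 (ENSG00000198189, chr4:87336610-87391386, minus strand) sits on lipid droplets and the endoplasmic reticulum and oxidises androgen metabolites. It measured 6.04 CPM without and 6.32 CPM with estradiol in AGS, and 40.7 CPM without and 47.0 CPM with it in HGC-27. Both HGC-27 libraries stood far above both AGS libraries, 7.09-fold in the fit (log2 difference -2.83 ± 0.11 SE, edgeR adjusted p = 1.19e-83). In AGS this level lay above that of 56.3% of the 19883 protein-coding genes per kilobase, and in HGC-27 above 88.2%, the largest move in rank among the 9 genes.

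HSD17B4 (ENSG00000133835, chr5:119452443-119637199, plus strand), the peroxisomal multifunctional protein whose main task is the beta-oxidation of very long chain fatty acids and bile acid precursors, was by far the most abundant member in CPM. It reached 162 CPM without and 144 CPM with estradiol in AGS, and 138 CPM without and 129 CPM with it in HGC-27. The AGS pair stood above the HGC-27 pair, but by only 1.14-fold (log2 difference 0.19 ± 0.06 SE, edgeR adjusted p = 0.00109). Without the AGS control library the difference was 0.11 (adjusted p = 0.0834), and without the HGC-27 estradiol library it was 0.14 (adjusted p = 0.0617). The call therefore depended on each of these libraries.

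HSD17B8 (ENSG00000204228, chr6:33204642-33206831, plus strand) works in the mitochondrion, where it pairs with CBR4 in fatty acid synthesis, and can oxidise estradiol. It measured 5.15 CPM without and 4.55 CPM with estradiol in AGS, and 3.25 CPM without and 3.80 CPM with it in HGC-27. The AGS libraries were the higher pair, yet this was the tested member whose line difference did not pass (1.38-fold, log2 difference 0.46 ± 0.24 SE, edgeR adjusted p = 0.0664). The controls alone gave a log2 ratio of 0.66 (0.28 to 1.06) and the estradiol libraries 0.26 (-0.13 to 0.66). Without the AGS estradiol library the difference was 0.56 and passed (adjusted p = 0.0249).

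**Figure D2:**
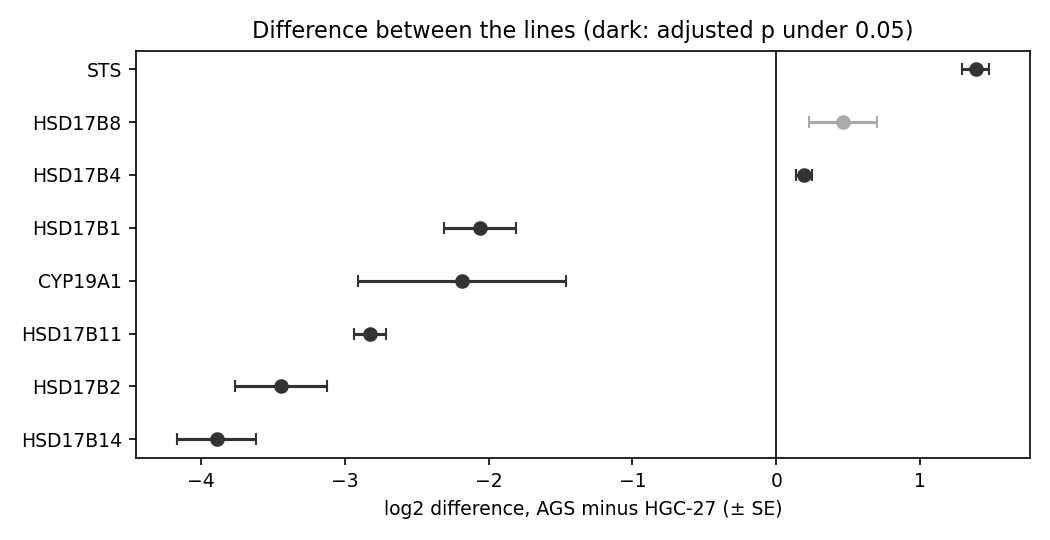
Fitted log2 difference, AGS minus HGC-27, with its SE for the 8 tested genes; dark points have an adjusted p under 0.05 and the grey point does not. HSD17B14 lies farthest to the HGC-27 side at -3.89, STS farthest to the AGS side at 1.39, and HSD17B4 close to 0 at 0.19.

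Levels between genes were compared as CPM per kilobase of deposited gene length. In AGS the order was HSD17B4 (14.34 ± 1.248 SD, n = 2 libraries), STS (6.72 ± 0.0504), HSD17B8 (4.14 ± 0.361), HSD17B11 (2.54 ± 0.0841), HSD17B14 (0.5 ± 0.269), HSD17B1 (0.293 ± 0.0198), HSD17B2 (0.0611 ± 0.0275), CYP19A1 (0.0201 ± 0.0102) and SULT1E1 at 0. HSD17B14 and HSD17B1 were neighbours whose means lay within their spread. In HGC-27 the order was HSD17B11 (18.01 ± 1.85), HSD17B4 (12.6 ± 0.599), HSD17B14 (7.38 ± 0.372), HSD17B8 (3.01 ± 0.332), STS (2.57 ± 0.00041), HSD17B1 (1.22 ± 0.0407), HSD17B2 (0.66 ± 0.028), CYP19A1 (0.0937 ± 0.0283) and SULT1E1 (0.0547 ± 0.0307). CYP19A1 and SULT1E1 overlapped there. In both lines the lowest ranks were those of aromatase and the sulfotransferase, the enzymes that begin and end the oestrogen route. These SDs span a control and an estradiol library. The first ranks in HGC-27 depended on length, since with principal transcripts HSD17B4 (49.9 CPM per kilobase) stood above HSD17B11 (23.3).

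Within the 6 17β-HSD genes, the make-up of the summed CPM per kilobase shifted between lines. HSD17B4 held 65.8% and 65.3% of it in AGS (control, then estradiol) and 31.3% and 27.5% in HGC-27. HSD17B11 held 10.7%, 12.6%, 40.2% and 43.7% in the same order. HSD17B14 held 2.98%, 1.51%, 17.1% and 17.3%. The peroxisomal enzyme was thus the main transcript of these 6 in AGS, and the lipid droplet enzyme that in HGC-27. The sum leaves out the other 17β-HSDs. Among them HSD17B10 had 50.4 and 53.6 CPM in AGS and 89.8 and 87.5 CPM in HGC-27, control then estradiol. In HGC-27 that was above the 40.7 and 47.0 CPM of HSD17B11, with no division by length. HSD17B8 held 18.9% to 19.0% in AGS and 6.68% to 7.34% in HGC-27, and HSD17B1 1.20% to 3.01% over all 4 libraries. With principal transcript lengths HSD17B4 was the main transcript of the 6 in both lines, at 85.9%, 85.7%, 57.5% and 53.3%. HSD17B11 then held 4.55%, 5.38%, 24.1% and 27.6%, so the higher HSD17B11 share in HGC-27 was seen on both scales.

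**Figure D3:**
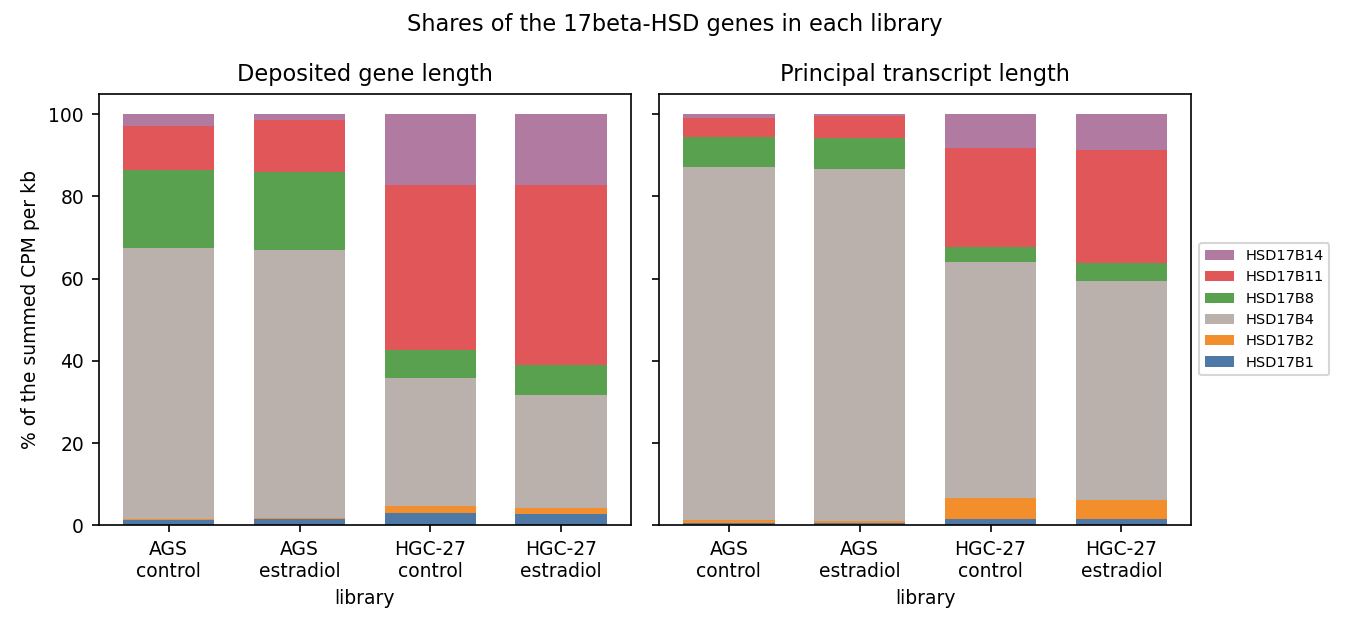
Stacked bars of the share (%) of each of 6 17β-HSD genes in their summed CPM per kilobase, for each library, with the deposited gene length on the left and the principal transcript length on the right. HSD17B4 (grey) fills 65.3% to 65.8% of the AGS bars on the left and 27.5% to 31.3% of the HGC-27 bars, where HSD17B11 (red) fills 40.2% to 43.7%.

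None of the 8 tested enzymes passed the threshold after 1 day in estradiol. Over both lines the count was 0 of 8 (edgeR quasi-likelihood test with Benjamini-Hochberg adjustment), where 0.153% of all tested genes were called. DESeq2 and limma-voom also called 0 of 8. At an unadjusted p under 0.05, each of the 3 tools passed 1 of 8, beside 3.24% of all tested genes by edgeR, where the gene was HSD17B4. Fitted changes were above 0 for 4 genes and below 0 for 4, with a median log2 change of -0.0029 for the members and -0.00072 for all tested genes.

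HSD17B4 had the lower reading with estradiol in both lines, 144 against 162 CPM in AGS and 129 against 138 CPM in HGC-27. Its log2 change was -0.14 ± 0.06 SE, with an unadjusted p of 0.0138 and an edgeR adjusted p of 1.00, so it failed the correction; 0.0383% of all tested genes passed as lower and 0.115% as higher. Within lines, where 1 library a group allows no test, the log2 ratio was -0.18 in AGS (95% counting interval -0.24 to -0.11) and -0.10 in HGC-27 (-0.16 to -0.03). Such intervals cover counting error only and omit the spread between cultures. They treat each read as a separate molecule, which reads counted without molecular identifiers need not be, so they can be too narrow.

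STS had a log2 change of -0.01 ± 0.09 SE over both lines. Its within-line log2 ratios were -0.02 in AGS (-0.13 to 0.10) and -0.00009 in HGC-27 (-0.19 to 0.19). HSD17B11 had a log2 change of 0.17 ± 0.11 SE, with ratios of 0.07 in AGS (-0.25 to 0.39) and 0.21 in HGC-27 (0.09 to 0.33). HSD17B11 in HGC-27 was the one member ratio whose counting interval lay wholly above 0, beside 10.1% of genes in that line. For HSD17B1 the log2 change was 0.00 ± 0.24 SE, with ratios of 0.14 in AGS (-0.49 to 0.78) and -0.07 in HGC-27 (-0.37 to 0.23).

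Members with few counts had wide intervals. HSD17B14 went from 23 counts to 11 in AGS, a log2 ratio of -1.12 (-2.34 to -0.06), but from 264 to 245 counts in HGC-27, whose estradiol library was the smaller, a ratio of 0.10 (-0.15 to 0.36). HSD17B2 went from 20 to 11 counts in AGS, a ratio of -0.92 (-2.16 to 0.18), and had -0.09 (-0.40 to 0.23) in HGC-27. CYP19A1 had -0.98 (-3.72 to 1.14) in AGS and 0.62 (-0.32 to 1.59) in HGC-27. HSD17B8 had -0.18 (-0.54 to 0.18) in AGS and 0.23 (-0.20 to 0.65) in HGC-27. Fitted over both lines, the log2 changes were -0.11 ± 0.25 SE for HSD17B14, -0.27 ± 0.29 for HSD17B2, 0.13 ± 0.70 for CYP19A1 and 0.01 ± 0.24 for HSD17B8. A ratio for SULT1E1 could be formed only in HGC-27, from 2 and 4 counts, as 1.06 (-1.59 to 4.68).

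In AGS the counting interval left out 0 for 2 of the 7 members averaging 10 counts or more (HSD17B4 and HSD17B14), beside 26.2% of all such genes. In HGC-27 it did so for 2 of 8 (HSD17B4 and HSD17B11), beside 21.3%. Ratios larger than 0.32 in size on the log2 scale numbered 2 of 7 in AGS (HSD17B2 and HSD17B14), beside 20.9%, and 1 of 8 in HGC-27 (CYP19A1), beside 19.7%. Intervals wholly below 0 were seen for 2 of 7 AGS ratios and for 1 of 8 HGC-27 ratios, beside 13.6% and 11.2%, and wholly above 0 they were 0 of 7 and 1 of 8, beside 12.6% and 10.1%. The ratio had opposite signs in the lines for 3 of the 7 members that average 10 counts or more in both, beside 51.4% of such genes. With so few members, single genes set these shares.

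**Figure D4:**
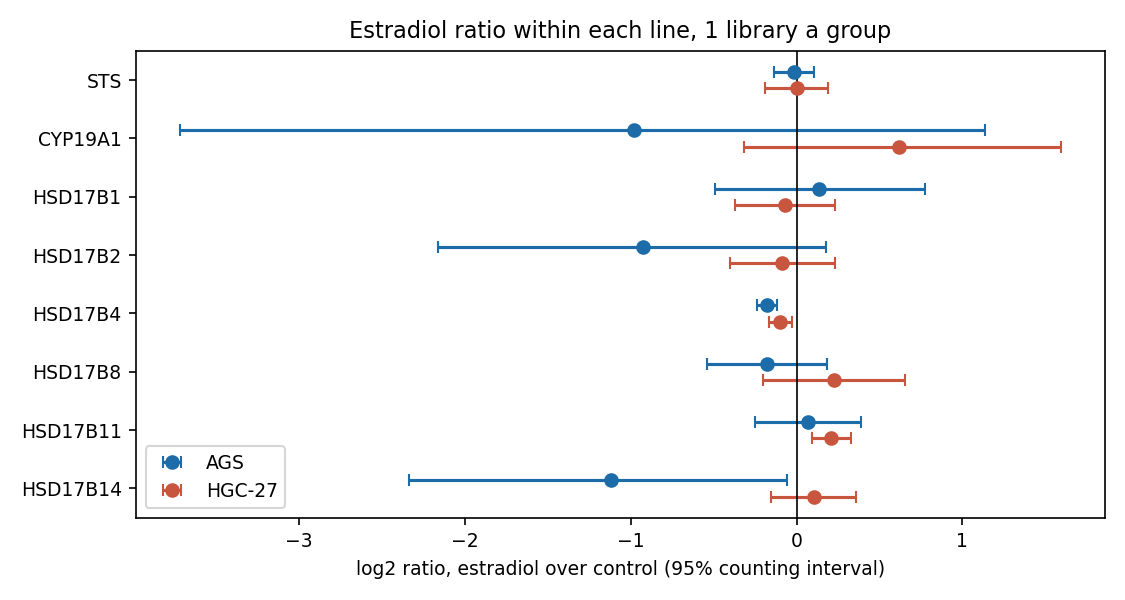
Log2 ratio of estradiol over control within AGS (blue) and HGC-27 (red) for 8 genes, each from 1 library a group, with 95% counting intervals as bars. STS and HSD17B4 have narrow intervals near 0, while CYP19A1, HSD17B2 and HSD17B14 in AGS have wide ones on the lower side, centred at -0.98, -0.92 and -1.12.

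The other genes of the pathway, 124 in 10 lists, were placed beside the enzymes. Of these, 92 were tested, and 42 were higher in AGS and 36 higher in HGC-27 by edgeR, beside 35.7% and 41.5% of all tested genes. The filter on low counts was passed through 1 line alone by 19 of the 92, of which 18 were called. Over all 18278 tested genes, 4821 passed that way, of which 4162 were called. The line difference of the 19 was partly set by that filter. Among the named genes these are HSD17B12, AKR1C1, SULT2A1, PAPSS2, UGT1A1, CYP1B1, GSTM1, SLCO2B1, SLCO1B3, SLCO1B1, NR3C1, PTGER2, ABCD2 and CIDEC. Of the 73 that passed in both lines, 33 were higher in AGS and 27 in HGC-27. Of all 13249 tested genes that passed in both lines, 5206 were higher in AGS and 4738 in HGC-27. For estradiol 0 of 92 passed by edgeR, DESeq2 or limma-voom, and at an unadjusted p under 0.05 the counts were 8, 3 and 4 in that order, beside 593, 145 and 490 of all 18278 tested genes.

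Other 17β-HSDs stood higher in HGC-27 for 8 of the 9 tested genes of 10, and 0 were higher in AGS (median log2 difference -1.01). HSD17B12, a reductase of fatty acid elongation, had 0 and 0 counts in the AGS libraries and 559 and 421 in those of HGC-27, at least 157-fold higher against a floor of 3 counts per library. HSD17B6, which acts on androgen metabolites, was at 11 and 11 counts in the AGS libraries and 70 and 84 in the HGC-27 ones (log2 difference -2.79 ± 0.44 SE). Over all tested genes 41.5% were higher in HGC-27, and whether the list differs from other genes was not tested. Among the androgen precursor genes 9 of 16 were tested, 3 higher in AGS and 4 in HGC-27 (median 0.08). FDXR, the reductase that feeds electrons to mitochondrial steroid P450s, had a log2 difference of 2.06 ± 0.10 SE towards AGS, and AKR1C1, a ketosteroid reductase with near-identical relatives and so an uncertain count, was lower by 3.05 ± 0.46. CYP17A1, the enzyme that makes androgens from progestogens, had 0, 0, 1 and 0 counts in AGS control, AGS estradiol, HGC-27 control and HGC-27 estradiol.

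Genes that support sulfation and sulfatase were tested for 11 of 13, with 6 higher in AGS and 4 in HGC-27 (median 0.51). PAPSS2, which makes the sulfate donor that SULT1E1 uses, had 6 and 4 counts in the AGS libraries and 138 and 129 in those of HGC-27 (log2 difference -4.70 ± 0.43 SE). SULT2A1, the sulfotransferase for dehydroepiandrosterone, had 59 and 47 counts in the AGS libraries and 0 in both HGC-27 libraries, at least 16.6-fold higher in AGS. PAPSS2 and SULT2A1 thus differed in opposite directions. PAPSS1, the paralogue of PAPSS2 in the same list, was higher in AGS (log2 difference 0.51 ± 0.06 SE). Its level was 91.8 CPM in AGS control, 86.9 CPM in AGS estradiol, 61.5 CPM in HGC-27 control and 64.2 CPM in HGC-27 estradiol. PAPSS2 reached at most 5.15 CPM, so its low counts in AGS do not show that the sulfate donor was scarce there. The supply of the donor was not tested. Of the glucuronidation genes 3 of 12 were tested, 2 higher in AGS and 1 in HGC-27 (median 0.94). UGT1A1, which shares exons with other UGT1A genes and so has an uncertain count, had 48 and 32 counts in the AGS libraries and 2 and 4 in those of HGC-27. UGDH, which makes the glucuronic acid donor, was higher in AGS by 0.94 ± 0.06 SE on the log2 scale.

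Catechol oestrogen genes were tested for 8 of 11, with 5 higher in AGS and 3 in HGC-27 (median 0.54). CYP1B1, the 4-hydroxylase of estradiol, had 0 and 0 counts in the AGS libraries and 4920 and 3943 in those of HGC-27, at least 1420-fold higher, and GSTM1, a glutathione transferase, had 464 and 531 counts in the AGS libraries and 0 in those of HGC-27, at least 154-fold higher in AGS. Transporters were tested for 11 of 14, with 7 higher in AGS and 4 in HGC-27 (median 1.13). SLCO2B1 and SLCO1B3, uptake carriers of oestrone sulfate, were at 0 in both HGC-27 libraries and had 717 and 585, and 375 and 458, counts in AGS, at least 203-fold and 129-fold higher. SLCO1A2, another organic anion uptake carrier, named after its values were seen, went the other way, with 14 and 13 counts in the AGS libraries against 186 and 189 in the HGC-27 ones. SLCO1B1, SLCO3A1 and SLCO4A1 were also higher in AGS (log2 difference 5.46 ± 0.78, 0.97 ± 0.13 and 2.47 ± 0.10 SE). SLCO1A2 was thus the exception among the tested SLCO genes.

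Receptors and regulators of aromatase were tested for 6 of 8, with 4 higher in AGS and 2 in HGC-27 (median 2.19). ESR1, the main oestrogen receptor gene, had 4, 5, 1 and 3 counts in AGS control, AGS estradiol, HGC-27 control and HGC-27 estradiol. ESR2 had 44, 73, 17 and 19, and GPER1, a membrane oestrogen receptor, had 35, 28, 1051 and 894. PTGS2, the cyclooxygenase whose product raises aromatase in several tissues, was higher in AGS by 5.30 ± 0.17 SE on the log2 scale, and the glucocorticoid receptor NR3C1 had 858 and 875 counts in the AGS libraries and 1 and 4 in those of HGC-27. PTGER2, a receptor gene of the same list, had 7 and 3 counts in the AGS libraries and 66 and 60 in those of HGC-27. CYP19A1 was also lower in AGS, and a link between these genes was not tested.

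The remaining lists follow the fatty acid roles of 3 members. Peroxisomal beta-oxidation genes, the partners of HSD17B4, were tested for 17 of 18, with 10 higher in AGS and 4 in HGC-27 (median 0.17). ACAA1, the thiolase of that route, was higher in AGS by 1.79 ± 0.10 SE on the log2 scale, and ABCD2, a peroxisomal fatty acid transporter, had 1 and 0 counts in the AGS libraries and 11 and 15 in those of HGC-27. The small lead of AGS in HSD17B4 was close to the list's median. Mitochondrial fatty acid synthesis genes, around HSD17B8, were tested for 7 of 7, with 1 higher in AGS and 3 in HGC-27 (median 0.06). CBR4, the partner subunit of HSD17B8, was lower in AGS by 0.96 ± 0.09 SE, and MCAT, the malonyl transferase, was higher by 0.39 ± 0.12. Lipid droplet genes, around HSD17B11, were tested for 13 of 17, with 4 higher in AGS and 5 in HGC-27 (median -0.04). METTL7A, a droplet-associated methyltransferase-like protein, was higher in HGC-27 (log2 difference -2.94 ± 0.16 SE), as HSD17B11 was, and CIDEC, a droplet fusion protein, had 42 and 31 counts in the AGS libraries and 1 and 4 in those of HGC-27.

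**Figure D5:**
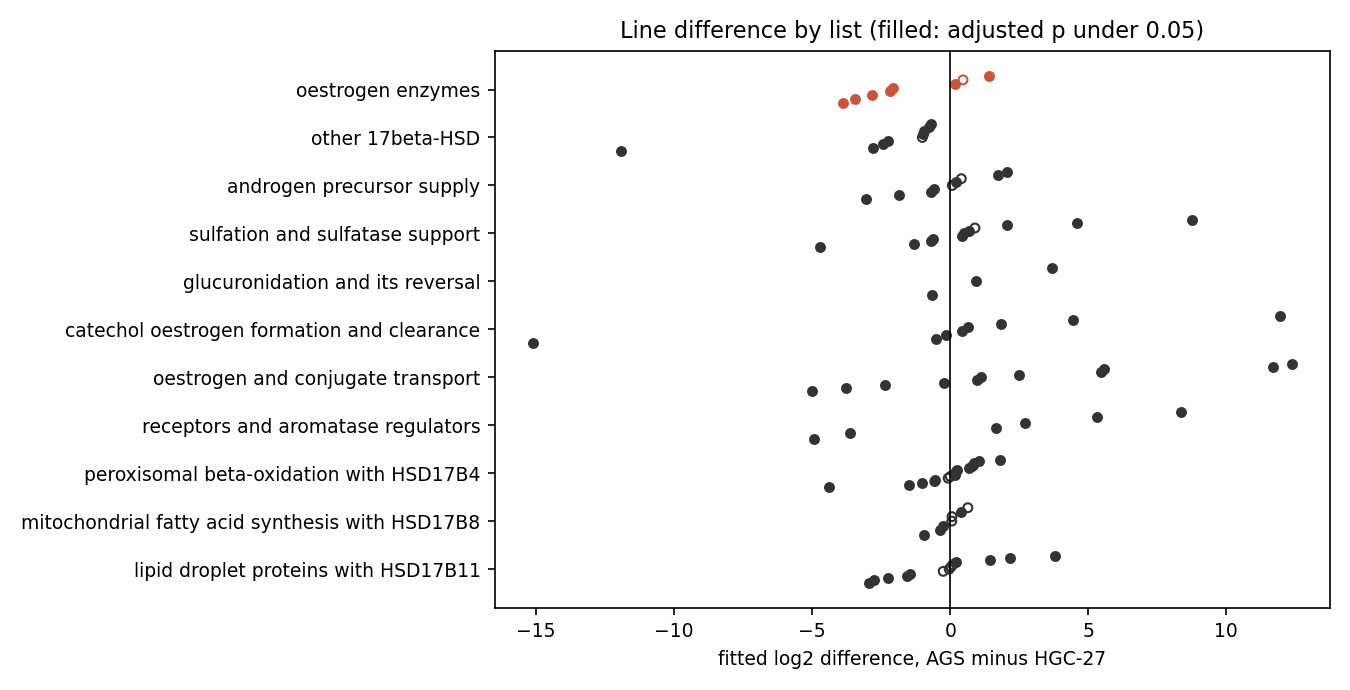
Fitted log2 difference, AGS minus HGC-27, of each tested gene by list, with the 8 oestrogen enzymes in red on the top row; filled points have an adjusted p under 0.05 and open ones do not. The other 17β-HSDs lie mostly left of 0 (median -1.01) and the transporters mostly right (median 1.13). Fitted values of genes at 0 counts in a line depend on the prior count.

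With estradiol, the genes with the highest mean count in each list had fitted log2 changes from -0.15 (NQO1) to 0.20 (PTGS2). Among the partners of HSD17B4, ABCD3 and SCP2 each had a log2 change of -0.13 ± 0.06 SE, close to that of HSD17B4. That list's median was -0.09 against -0.00072 for all tested genes. Medians of the other lists ran from -0.12 (catechol oestrogen genes) to 0.04 (other 17β-HSDs). NDUFAB1, of the HSD17B8 list, changed by -0.13 ± 0.07 SE, so such a change was not particular to the partners of HSD17B4. NQO1, a quinone reductase that clears catechol oestrogen quinones, had the change of -0.15 ± 0.05 SE with an edgeR adjusted p of 0.751. None of these passed the threshold.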

How the data were processed

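Total RNA of AGS and HGC-27 cells, with or without estradiol, was isolated with TRIzol, and libraries followed an NEB protocol, per the labels' protocols. Reads were aligned with HISAT2 and counted with featureCounts, per the submitters' processing notes; versions, strand setting and the handling of reads with several matches are not given in the sources used here. Raw counts per gene were deposited by the authors as whole numbers, with no normalization, beside gene lengths. The notes name the build hg18, but 57464 gene starts and ends, including all 9 printed here, equal those of GENCODE release 29 on GRCh38. No deposited sample column was left unused.

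Differences were tested on the counts with edgeR 4.0.16 under R 4.3.3 (TMM, filterByExpr by line, quasi-likelihood test, model of line plus treatment, Benjamini-Hochberg over 18278 genes, threshold 0.05). The model has 1 residual degree of freedom, 396.9 prior degrees of freedom and a biological coefficient of variation of 4.59%, so the tests lean on the spread pooled across genes. DESeq2 1.42.0 and limma-voom 3.58.1 were alternatives, and the closing section gives the others. Library numbers mark the line, so they pair the libraries: log2 CPM correlated at 0.998 within each line and at 0.777 to 0.781 across lines (Pearson r over tested genes). SEs derive from the change and its F statistic. Within a line, log2 ratios have a prior of 0.5 counts and exact (Clopper-Pearson) 95% intervals. Motifs were searched in RefSeq promoter windows. Principal transcripts are those of GENCODE release 29; this second length was chosen after seeing the data. The fits were run on simulated data with the same dispersion for every gene. Changes were placed only in genes above a count floor, so this does not cover genes with few counts.

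All 9 members were named, with the receptors ESR1, ESR2 and GPER1. Of each further list, the rule named the 2 genes with the largest change past the threshold. With none past it, the 2 with the highest mean count were named. HSD17B8's and HSD17B4's neighbours follow the same rule. CYP17A1, SLCO1A2, SLCO1B1, SLCO3A1, SLCO4A1 and PTGER2 were added after their values were seen, as were the line values of HSD17B10 and PAPSS1. Members and lists were chosen with earlier results of these data known.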

Additional observations from a re-analysis of the deposited data

Results flagged for a closer look

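For 4 of the 8 enzymes with a ratio in both lines, the estradiol log2 ratio had opposite signs in AGS and HGC-27, and the difference was not tested because each group has 1 library. Without CYP19A1, which averages under 10 counts in AGS, this is 3 of 7, beside 51.4% of all genes that average 10 or more in both lines. CYP19A1 had -0.98 in AGS and 0.62 in HGC-27, a difference (HGC-27 minus AGS) of 1.60, from 6 and 3 counts in the AGS libraries and 18 and 24 in the HGC-27 ones. HSD17B14 had -1.12 in AGS and 0.10 in HGC-27, a difference of 1.22. The difference was 0.40 for HSD17B8 (-0.18 and 0.23) and -0.20 for HSD17B1 (0.14 and -0.07), and for both genes each counting interval includes 0.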

How the results depend on the processing

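Over all genes, 28 were called for estradiol. DESeq2 called 1 and limma-voom 0 (145 and 490 at an unadjusted p under 0.05), robust dispersion 17, and the fit with no replicate block, which ignores the pairing by line, 0 (2 at an unadjusted p under 0.05); size factors gave 23 and no filter 28. The cause was not tested. None of these settings called a tested enzyme for estradiol. Signs reversed near 0 for CYP19A1 (DESeq2 -0.068, limma-voom -0.079), HSD17B1 (limma-voom -0.015, no filter -0.0043, no replicate block -0.028), HSD17B8 (limma-voom -0.0014, no replicate block -0.0078) and HSD17B14 (no replicate block 0.026). Leaving out a library leaves 1 line and no test for estradiol; the AGS pair alone gave -0.92 for HSD17B2 and -1.12 for HSD17B14. The 14106 line calls ranged from 13189 to 14408 with 1 library left out and from 12542 to 14357 otherwise. Line calls changed for CYP19A1, HSD17B4 and HSD17B8 as reported, and HSD17B8 also passed with no treatment term (adjusted p = 0.0461). The other 5 tested enzymes kept direction and call in all 10 alternatives. Of 18 ranks over both lines, 7 were kept without dividing by length and 10 with principal transcripts. At these depths, changes in SULT1E1 and CYP19A1 are limited by counts of 0 to 24.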
